A study of Mus musculus with 15 samples.

Results

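The Myc, Max and Mxd network is a set of basic helix-loop-helix leucine zipper transcription factors built around the shared partner Max. Its members here were the 8 mouse genes Myc, Mycn, Max, Mxd1, Mxd3, Mxd4, Mxi1 and Mnt, and every probe set annotated to 1 of them was taken, whatever its signal. That gave 19 of the 45037 probe sets on the array besides the controls. Of these, 13 probe sets of 7 genes reached the median signal of their array on 3 or more of the 15 arrays and were tested, and the other 6, including all 3 of Mycn, are given by their signals.

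Pairs of Myc or N-Myc with Max bind the E-box motif CACGTG and raise transcription of genes for growth, ribosome production and metabolism. Pairs of Max with Mxd proteins, Mxi1 or Mnt bind the same motif and repress it through Sin3 and histone deacetylases. In resting B cells Myc is low, it is induced when antigen or Toll-like receptor ligands start growth and division, and Mxd proteins are known from many cell types to mark quiescent or differentiated states.

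AM-14 mice carry transgenes for a B cell receptor with affinity for the animal's own IgG, and the cells were B cells from them. Groups of 3 arrays each held cells given anti-IgM (F(ab')2 fragments of a goat antibody to mouse IgM, which crosslinks the receptor), CpG (the phosphorothioate oligodeoxynucleotide 1826, a TLR9 ligand), PL2-3 (chromatin immune complexes, which bring DNA to TLR9 through the receptor), anti-IgM together with CpG, and media alone. The AM-14 origin was common to all 5 groups. For the cells given both agents the titles name the agents and the treatment field names none. Whether arrays of 1 group stand for different mice or cultures is not stated, so p-values measure the spread between these arrays only. The sources used here give no doses or times.

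Values are linear array signals. Changes are log2 differences ± SE, fitted by limma to 3 arrays in each group, on the scale of log2 of the signal plus 75.19, which understates the change of dim probe sets. Rose and fell are used where the Benjamini-Hochberg adjusted p over all 27881 tested probe sets was under 0.05. The 4 comparisons against media share the same 3 media arrays.

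All 9 B cell markers found on the array were at or above the array median on all 15 arrays. The 3 anti-IgM+CpG arrays stood apart: Xist, an RNA made from the inactive X chromosome, was between 320.8 and 589.2 on them and between 4251.9 and 15543 on the other 12 arrays. The labels assign the Enzo kit to replicates 1 and 2 and the Ambion kit to replicate 3 of every group. The 5' to 3' ratio of the beta-actin control probe sets was 0.335 to 0.747 on Enzo arrays and 0.108 to 0.201 on Ambion arrays of the other 4 groups, but 0.105 to 0.193 on all 3 anti-IgM+CpG arrays. Changes with both agents against media are therefore also given, for tested members, with a labelling term read from this ratio (the actin-based term), as are the member values and list counts that it alters most. Summed signals of 10 myeloid, 4 erythroid and 5 plasma cell markers were highest on anti-IgM+CpG replicate 1 (155916, 99563 and 127088) and media replicate 3 (259442, 139412 and 132874), and 8, 3 and 4 of these markers were at or above the median on all 15 arrays. Over the other 11 stimulated arrays the sums were 19365 to 101812, 29451 to 63119 and 23911 to 47949, and on media replicates 1 and 2 they were 126176 and 128757, 77883 and 73900, and 48425 and 43422. The part of these array differences in the results was not tested. Low Xist was on all 3 anti-IgM+CpG arrays and on no others. What sets that group apart therefore cannot be told apart from the effect of giving both agents.

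Because Max pairs bind CACGTG, the promoters of the network's own genes were searched for it. RefSeq promoters on GRCm38.p6, from 250 bases before to 50 bases after each annotated start, held 9 entries for 7 of the member genes, and Myc had none among them. The motif, which reads the same on both strands, was found in 3 of the 9, those of Max, Mxd4 and Mnt, against 2349 of all 32851 promoters (7.15%). The windows of 60 bases below show it in capitals, on the strand of each gene. A match is a description of these letters and not a bound site.
Max, chr12:76962219-76962278, minus strand: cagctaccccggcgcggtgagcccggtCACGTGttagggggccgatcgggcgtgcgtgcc
Mxd4, chr5:34187897-34187956, minus strand: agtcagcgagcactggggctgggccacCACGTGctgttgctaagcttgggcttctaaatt
Mnt, chr11:74830774-74830833, plus strand: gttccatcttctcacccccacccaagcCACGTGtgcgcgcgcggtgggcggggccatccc
The first base of the motif lay at -3 from the start of Max, at -219 from that of Mxd4 and at -123 from that of Mnt. As described below, these 3 genes moved differently from one another. The main Mxd4 probe sets fell with all 4 treatments and Max rose with both agents together. Mnt did not pass the test against media with the labelled kits.

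Myc, the growth-promoting partner of Max, rose to a similar signal with every treatment. Its probe set, 1424942_a_at, had signals of 32652, 39369 and 21811 with anti-IgM, of 37330, 34453 and 21096 with CpG, of 33820.3, 42821 and 17417 with PL2-3 and of 36915, 29760.3 and 31551 with anti-IgM+CpG, against 10047, 10004 and 3100 in media. The lowest stimulated array was above the highest media array in each of the 4 comparisons. Replicate 3, labelled with the Ambion kit, was the lowest array of its group with anti-IgM, CpG and PL2-3 and in media, but not with anti-IgM+CpG.

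The change of Myc against media was 2.15 ± 0.24 with anti-IgM (limma adjusted p = 5.95e-05), 2.13 ± 0.24 with CpG (limma adjusted p = 1.71e-05), 2.10 ± 0.24 with PL2-3 (limma adjusted p = 3.02e-05) and 2.25 ± 0.24 with both agents (limma adjusted p = 4.82e-06). These are rises of 4.28- to 4.76-fold. Within the arrays labelled Enzo the changes were 1.83, 1.83, 1.92 and 1.72 in the same order of treatments. On the single array of each group labelled Ambion they were 2.79, 2.74, 2.46 and 3.32. The value of 1.72 with both agents may mix kits, since the beta-actin ratio of those anti-IgM+CpG arrays was as low as on Ambion arrays. With the actin-based term the change with both agents was 2.96 ± 0.20. In bulk RNA, a change in the share of cells of a type and a change of RNA per cell cannot be told apart. That limit holds for each result below.

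No difference in Myc between the stimuli passed the test with the labelled kits. PL2-3 minus anti-IgM was -0.05 (95% interval -0.56 to 0.46), PL2-3 minus CpG was -0.03 (-0.54 to 0.47) and CpG minus anti-IgM was -0.02 (-0.52 to 0.49). The intervals leave room for a difference of up to about 0.5 on the log2 scale in either direction. Both agents minus anti-IgM was 0.10 (-0.41 to 0.61), both agents minus CpG was 0.12 (-0.39 to 0.63), and PL2-3 minus both agents was -0.15 (-0.66 to 0.36). With the actin-based term these were 0.81 ± 0.20, which passed the test, 0.83 ± 0.20, which did not, and -0.86 ± 0.20 (-1.30 to -0.43), which did not. The order of the mean log2 signals from highest to lowest was therefore both agents, anti-IgM, CpG and PL2-3, then media, and with the labelled kits only media differed from its neighbour by the test.

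**Figure D1:**
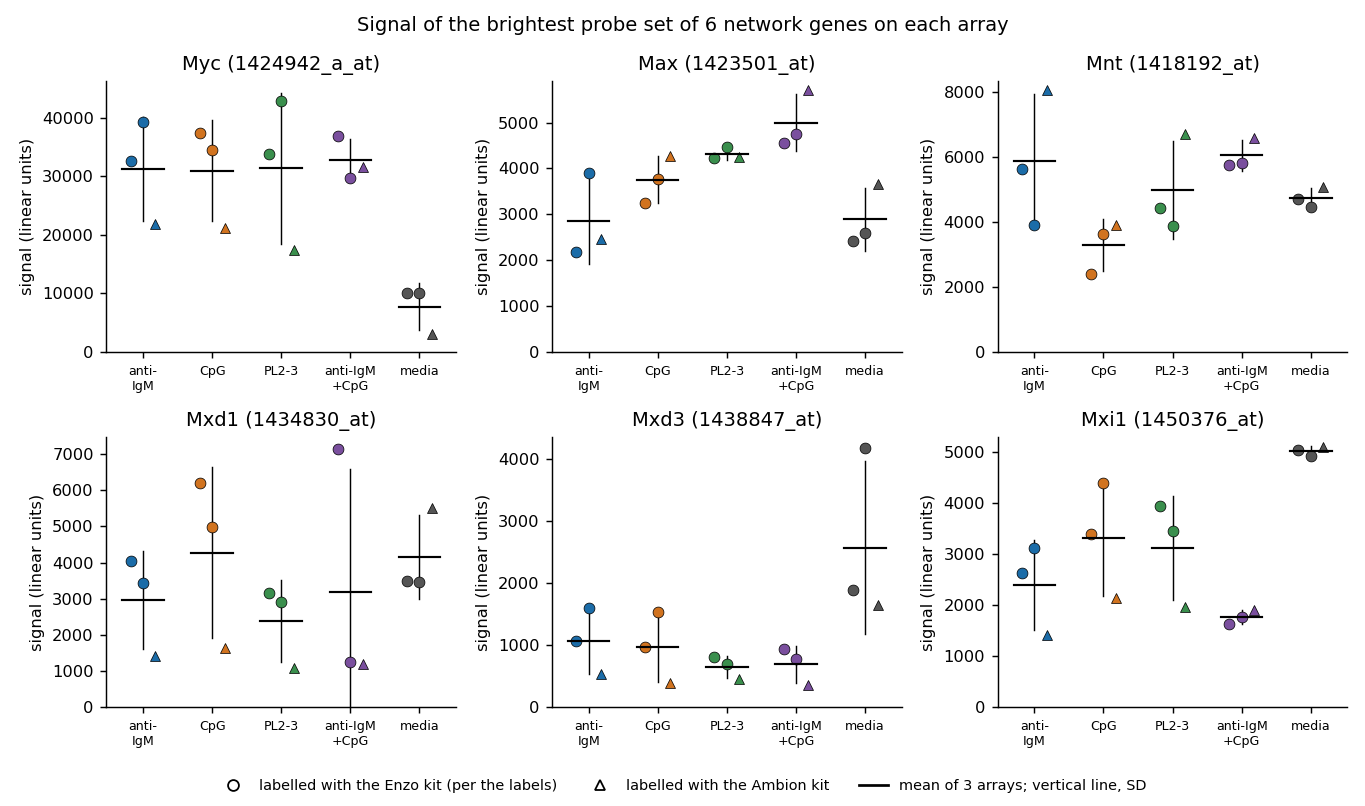
Linear signal (vertical axes, each from 0) of the brightest probe set of Myc, Max, Mnt, Mxd1, Mxd3 and Mxi1 on each of the 15 arrays, by group (horizontal axes). Points are arrays, horizontal bars are means of 3 arrays, vertical lines are SDs, circles were labelled with the Enzo kit and triangles with the Ambion kit. The 12 stimulated arrays lie between 17417 and 42821 for Myc and the media arrays between 3100 and 10047, while Mxd3 and Mxi1 are highest in media.

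N-Myc, encoded by Mycn and better known from progenitors and the nervous system, was dim. Its probe sets 1417155_at and 1425923_at were below the array median on all 15 arrays, with highest signals of 433.7 and 272.1. The third, 1425922_a_at, reached the median on 1 array, anti-IgM+CpG replicate 1, at 539.4, and was at 89.5 or below on the other 14. No change in Mycn was tested.

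Max, the shared partner of the other members, rose with both agents together. Probe set 1423501_at had signals of 2174, 3902 and 2466 with anti-IgM, of 3247, 3764 and 4265 with CpG, of 4231, 4462 and 4260.4 with PL2-3 and of 4546, 4741 and 5717 with anti-IgM+CpG, against 2414, 2588 and 3668 in media. The anti-IgM and CpG arrays overlapped the media arrays, whereas the PL2-3 and anti-IgM+CpG arrays all lay above them. The change was 0.79 ± 0.21 with both agents (limma adjusted p = 0.00804), or 0.70 ± 0.23 with the actin-based term, which also passed the test. It was 0.59 ± 0.21 with PL2-3 (limma adjusted p = 0.0633), 0.39 ± 0.21 with CpG and -0.04 ± 0.21 with anti-IgM, none of which passed. The change with PL2-3 did pass under 8 of 31 alternatives, and that with CpG under 1.

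The Mxd proteins and Mxi1 are Max partners that oppose Myc. Of their 10 tested probe sets, 5 fell with anti-IgM, 4 with CpG, 6 with PL2-3 and 7 with both agents, where 5.88%, 12.1%, 9.81% and 24.4% of all tested probe sets fell, and none of the 10 rose. 1434379_at of Mxd4 and 1448878_at of Mxd3 reached the array median on 5 arrays each, among them all 3 media arrays. They met the filter of 3 arrays only with the media arrays counted, which favoured calling them as falls.

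Mxd4 had the largest falls of the network in each of the 4 comparisons against media. Signals of 1434378_a_at were 414.3, 316.0 and 929.5 with anti-IgM, 152.8, 124.6 and 335.5 with CpG, 132.3, 99.3 and 862.4 with PL2-3 and 719.3, 296.3 and 88.0 with anti-IgM+CpG, against 3401, 2654 and 7275 in media. The highest of the 12 stimulated arrays was below the lowest media array. The changes were -2.83 ± 0.58 with anti-IgM (limma adjusted p = 0.00405), -3.95 ± 0.58 with CpG (limma adjusted p = 0.000157), -3.67 ± 0.58 with PL2-3 (limma adjusted p = 0.000375) and -3.50 ± 0.58 with both agents (limma adjusted p = 0.000245, or -4.45 ± 0.49 with the actin-based term).

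A second Mxd4 probe set, 1434379_at, reached the array median on 5 of 15 arrays and was again lower on all 12 stimulated arrays than on any media array. It was at 98.4, 134.9 and 389.8 with anti-IgM, at 26.5, 41.7 and 16.2 with CpG, at 63.0, 71.7 and 432.6 with PL2-3 and at 127.8, 37.8 and 20 with anti-IgM+CpG, against 1440.4, 1254 and 2127 in media. Its changes were -2.68 ± 0.53, -4.00 ± 0.53, -2.92 ± 0.53 and -3.66 ± 0.53 in the same order of treatments, and all 4 passed the test, as did the change of -4.25 ± 0.54 with both agents under the actin-based term. Many stimulated signals were below the pseudocount, so the size of the fall depended on it: with CpG the change of 1434379_at was -5.90 with no pseudocount and -2.73 with a pseudocount of 244.9. Its call with anti-IgM was lost under 1 of 29 alternatives, that with no pseudocount.

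Another Mxd4 probe set, 1422575_at, had 336.0, 610.2 and 547.6 with anti-IgM, 439.7, 307.3 and 462.2 with CpG, 346.2, 504.3 and 448.4 with PL2-3 and 344.6, 267.0 and 105.7 with anti-IgM+CpG, against 418.5, 1126 and 722.5 in media. Only the anti-IgM+CpG arrays did not overlap the media arrays, and only that comparison passed the test (-1.40 ± 0.40, limma adjusted p = 0.012). The actin-based term gave a change that also passed. The call ended under 6 of 27 alternatives. It was lost without media replicate 2 or anti-IgM+CpG replicate 3, on arrays labelled Enzo alone, and with only the compared groups fitted. It was also lost when arrays were rescaled, whether by quantiles or to a common median. Across the 15 arrays the log2 signal of 1422575_at correlated less with 1434378_a_at and 1434379_at (Pearson r of 0.60 and 0.64) than those did with each other (0.95). 1422574_at was too dim to be tested, at 24.8 to 382.0 on the 12 stimulated arrays and 422.9 to 630.8 in media.

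**Figure D2:**
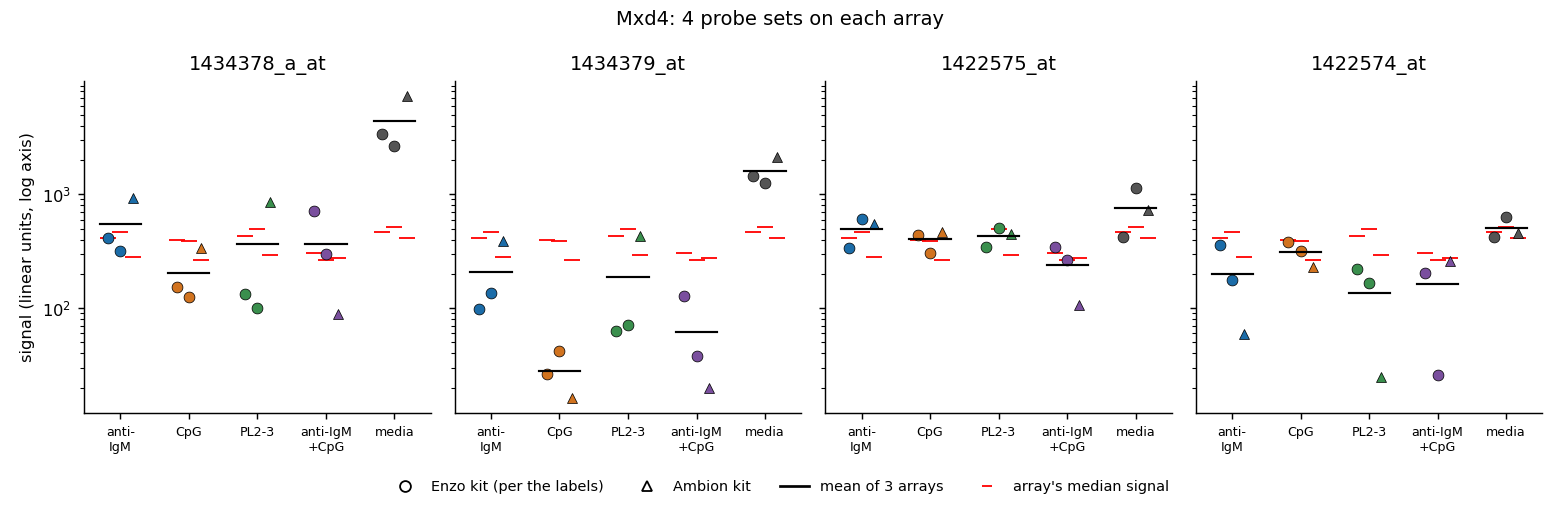
Linear signal on a log axis of the 4 Mxd4 probe sets (panels) on each array, by group. Points are arrays (circles Enzo, triangles Ambion), black bars are means of 3 arrays and red dashes mark each array's own median signal. In the first 2 panels the media arrays, at 2654 to 7275 and 1254 to 2127, lie above all 12 stimulated arrays, whereas 1422575_at overlaps media in 3 of the 4 treated groups.

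Mxd3, a Max partner reported in dividing cells, fell by its brightest probe set with every treatment. Signals of 1438847_at were 1078.5, 1606 and 538.1 with anti-IgM, 976.6, 1531 and 398.8 with CpG, 810.4, 698.2 and 460.4 with PL2-3 and 937.8, 778.6 and 360.9 with anti-IgM+CpG, against 1897, 4176 and 1646 in media. The groups did not overlap media, although anti-IgM replicate 2 (1606) came close to media replicate 3 (1646). The call with anti-IgM ended without media replicate 2 or 3 and without anti-IgM replicate 1 or 3. With no labelling term, or on the arrays labelled Enzo alone, the calls of 1438847_at with anti-IgM and with CpG both ended. The changes were -1.20 ± 0.30, -1.39 ± 0.30, -1.77 ± 0.30 and -1.75 ± 0.30 in that order, with limma adjusted p of 0.0138, 0.00322, 0.000618 and 0.000311. Under the actin-based term the change with both agents was -1.08 ± 0.38, which still passed.

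Of the other Mxd3 probe sets, 1448878_at had 45.9 to 480.6 with anti-IgM, 243.4 to 377.1 with CpG, 125.8 to 404.3 with PL2-3 and 91.3 to 524.3 with both agents, against 647.9 to 2251 in media. It fell by 2.20 ± 0.59, 2.00 ± 0.59 and 1.96 ± 0.59 on the log2 scale with anti-IgM, PL2-3 and both agents, and its change with CpG was -1.69 ± 0.59 (limma adjusted p = 0.0525). That with CpG passed under 11 of 29 alternatives, among them the actin-based term. The falls with anti-IgM, PL2-3 and both agents each lost their call without media replicate 3, where the probe set was at 2251. The same happened with anti-IgM without anti-IgM replicate 2 or 3, and with PL2-3 without PL2-3 replicate 1 or 3. With both agents it happened without anti-IgM+CpG replicate 2 or with the actin-based term (-1.75 ± 0.65). Each of these calls also ended on the arrays labelled Enzo alone, and that with PL2-3 ended with no pseudocount. The call with both agents was also lost when arrays were rescaled, by quantiles or to a common median. 1422970_at fell with CpG (-2.28 ± 0.65) and with both agents (-1.72 ± 0.65, limma adjusted p = 0.0471), but not with anti-IgM or PL2-3 (-0.75 ± 0.65 each). The call with CpG ended without media replicate 2, media replicate 3 or CpG replicate 3, and the call with both agents ended under 21 of 27 alternatives, among them the actin-based term (-1.45 ± 0.70).

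Mxi1, which also pairs with Max and recruits Sin3, was lower on all 12 stimulated arrays than in media. Signals of 1450376_at were 2637, 3133 and 1417 with anti-IgM, 3395, 4387 and 2152 with CpG, 3941, 3457 and 1975 with PL2-3 and 1631, 1763 and 1910.3 with both agents, against 5047, 4921 and 5108 in media. It fell by 1.12 ± 0.24 on the log2 scale with anti-IgM (limma adjusted p = 0.00578) and by 1.47 ± 0.24 with both agents (limma adjusted p = 0.00023, or by 1.03 ± 0.23 with the actin-based term). The change of -0.73 ± 0.24 with PL2-3 was at the threshold (limma adjusted p = 0.0465) and lost its call under 17 of 31 alternatives. The change of -0.65 ± 0.24 with CpG missed it (limma adjusted p = 0.0687), but passed under 7 of 31 alternatives, among them the actin-based term. The call with anti-IgM ended without anti-IgM replicate 3 (-0.78 within the Enzo arrays). A second probe set, 1425732_a_at, had 25.5 to 1019 on stimulated arrays and 32.5 to 543.3 in media and passed no test against media (with both agents -1.23 ± 0.64, or -0.41 ± 0.67 under the actin-based term).

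Mxd1 was not uniform. Signals of 1434830_at were 4034, 3425 and 1432 with anti-IgM, 6187, 4987 and 1644 with CpG, 3158, 2919 and 1096 with PL2-3 and 7124, 1243 and 1188 with both agents, against 3497, 3469 and 5499 in media. Only the PL2-3 arrays all lay below media, and no change passed the test, the values being -0.57 ± 0.50, -0.12 ± 0.50, -0.88 ± 0.50 and -0.85 ± 0.50 in the order of the treatments. With anti-IgM+CpG replicate 1 (7124) left out, the change with both agents was -1.54 and passed, whereas under the actin-based term it was -0.22 ± 0.59.

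The other tested Mxd1 probe set, 1455104_at, fell with PL2-3. It had 693.5, 859.9 and 248.9 with PL2-3, against 1304, 2160.3 and 1358 in media, which is a change of -1.42 ± 0.38 (limma adjusted p = 0.015). The call ended without media replicate 2, media replicate 3 or PL2-3 replicate 3. Its change was -0.46 ± 0.38 with anti-IgM, -0.02 ± 0.38 with CpG and -0.74 ± 0.38 with both agents, none of which passed. Without anti-IgM+CpG replicate 1 that with both agents was -1.25 and passed, and under the actin-based term it was -0.19 ± 0.44. 1422002_at was at or below 82.9 on all 15 arrays.

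Mnt, a Max partner present in resting and dividing cells alike, did not pass the test against media with the labelled kits. Signals of 1418192_at were 5626, 3897 and 8047 with anti-IgM, 2392, 3618 and 3896 with CpG, 4409.6, 3861 and 6694 with PL2-3 and 5738, 5798 and 6589.8 with both agents, against 4709.9, 4444 and 5067 in media. The CpG arrays were all below media and the anti-IgM+CpG arrays all above it. The changes were 0.24 ± 0.20 with anti-IgM, -0.54 ± 0.20 with CpG (limma adjusted p = 0.0649), 0.03 ± 0.20 with PL2-3 and 0.34 ± 0.20 with both agents (0.01 ± 0.21 under the actin-based term). The change of 1418192_at with CpG passed under 6 of 31 alternatives, among them the actin-based term, and that with both agents under 1 of 29. 1418193_at was too dim to be tested, at 20.3 to 291.9.

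**Figure D3:**
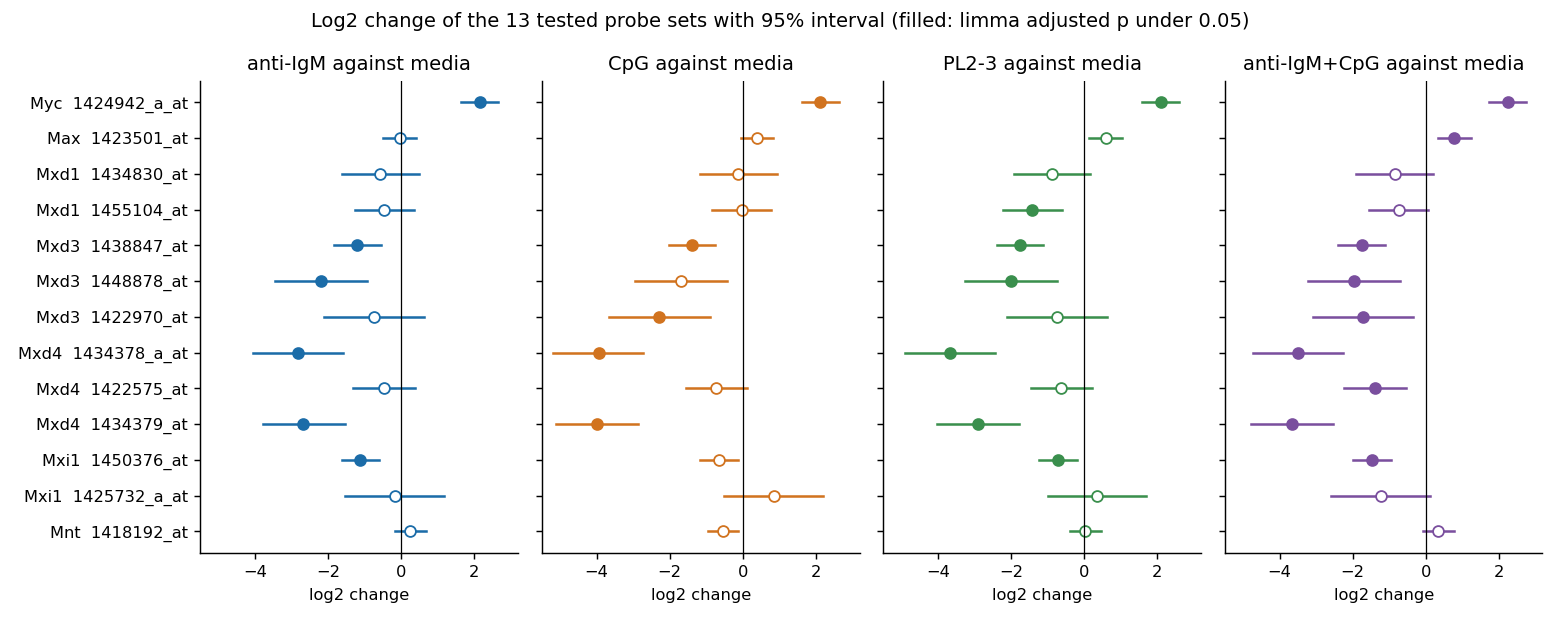
Log2 change against media (horizontal axes) of the 13 tested probe sets of the network (vertical axis), 1 panel per treatment. Points are limma estimates, lines are 95% intervals, and filled points passed an adjusted p of 0.05. Myc is filled to the right of 0 in all 4 panels, 1438847_at of Mxd3 and 1434378_a_at and 1434379_at of Mxd4 are filled to the left in all 4, and Max is filled only with anti-IgM+CpG.

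Counted over the 13 tested probe sets, 6 passed with anti-IgM (1 higher, 5 lower), where 12.8% of all tested probe sets passed (6.95% higher, 5.88% lower). With CpG 5 passed (1 higher, 4 lower) against 21.8% of all (9.66% higher, 12.1% lower), and with PL2-3 7 passed (1 higher, 6 lower) against 18.5% (8.70% higher, 9.81% lower). With both agents 9 passed (2 higher, 7 lower) against 37.3% (12.9% higher, 24.4% lower). Groups did not overlap for 6, 8, 9 and 9 of the 13 in that order, against 25.1%, 33.6%, 27.9% and 46.1% of all. The median change of the 13 was -0.57, -0.65, -0.75 and -1.40 in that order, and that of all tested probe sets was -0.13, -0.22, -0.12 and -0.38. Shifting all arrays to the same median moved the median of all probe sets by 0.24, 0.36, 0.19 and 0.59. With that shift the member counts were 1 higher and 5 lower, 2 and 4, 2 and 5, and 3 and 4, in the same order. Higher calls made up 54.2%, 44.4%, 47.0% and 34.5% of all calls as deposited and 78.2%, 76.4%, 65.2% and 74.8% after the shift. After quantile normalization they were 55.4% with CpG and 54.0% with both agents. The member counts were then 1 higher and 5 lower with anti-IgM and 1 and 6 with CpG. They were 2 and 6 with PL2-3 and 2 and 4 with both agents. Every member called against media changed in the same direction within the arrays labelled Enzo and within those labelled Ambion. With both agents the Enzo comparison follows the labels only, and cannot show that the kit was the same on both sides. The beta-actin ratio was 0.105 and 0.193 on anti-IgM+CpG replicates 1 and 2, against 0.445 and 0.440 on media replicates 1 and 2.

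Summed signals of B cell, T cell and NK cell markers were also lower on all stimulated arrays than in media. The 9 B cell markers summed to 97302 to 130009 with anti-IgM, 120938 to 141342 with CpG, 60627 to 111498 with PL2-3 and 53228 to 81005 with both agents, against 245193 to 322892 in media. For 9 T cell markers, of which 1 was at or above the median on all 15 arrays, the 12 stimulated arrays had 2429 to 6456 and the media arrays 7713 to 9368. For 5 NK cell markers, 3 of them above it throughout, the ranges were 1654 to 5204 on stimulated arrays and 5352 to 6839 in media. The myeloid, erythroid and plasma cell sums overlapped media. On anti-IgM+CpG replicate 1 they were 155916, 99563 and 127088, each within the media range. Of the 10 myeloid markers, 2 fell with anti-IgM, 3 with CpG, 2 with PL2-3 and 7 with both agents, with median changes of -0.92, -1.09, -1.11 and -1.62. Of 3 tested erythroid markers 0, 2, 3 and 2 fell in that order, and of 4 tested plasma cell markers 0, 1, 0 and 1 fell. None of these rose. The part of these shifts in the falls of Mxd3, Mxd4 and Mxi1 was not tested.

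Between the stimuli few members differed, as did few of all tested probe sets. In CpG against anti-IgM 1 of 13 passed (3.98% of all tested probe sets did): Mnt was lower with CpG by -0.78 ± 0.20 (limma adjusted p = 0.0352). The 3 CpG arrays, at 2392 to 3896, all lay below the 3 anti-IgM arrays, at 3897 to 8047, the nearest pair being 3896 and 3897. The call ended under 10 of 31 alternatives, among them leaving out anti-IgM replicate 1 or 3, CpG replicate 1 or 3, or PL2-3 replicate 1.

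Mnt was also the member that passed in anti-IgM+CpG against CpG (1 of 13, 4.39% of all), at 5738 to 6590 with both agents and 2392 to 3896 with CpG (0.88 ± 0.20, limma adjusted p = 0.0204). With the actin-based term it was 0.55 ± 0.21 and did not pass. The call also ended without CpG replicate 1 or 3 or without anti-IgM+CpG replicate 1 or 2. Without media replicate 3 or anti-IgM+CpG replicate 3, the count in that comparison was 2 and 4 in place of 1. In anti-IgM+CpG against anti-IgM 1 of 13 passed (7.93% of all): Max was at 4546 to 5717 with both agents and 2174 to 3902 with anti-IgM (0.83 ± 0.21, limma adjusted p = 0.0261). That was 0.74 ± 0.23 with the actin-based term and did not pass, nor did it without anti-IgM replicate 1 or 3 or anti-IgM+CpG replicate 2.

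No member differed between PL2-3 and another treatment by limma's test with the labelled kits, and few of all tested probe sets did. In PL2-3 against anti-IgM 0 of 13 members passed (0.316% of all did), with 2 at an unadjusted p under 0.05. In PL2-3 against CpG 0 passed (1.92% of all), with 3 at an unadjusted p under 0.05, and in PL2-3 against anti-IgM+CpG 0 passed (1.68% of all), with 2. The nearest to the threshold was 1455104_at of Mxd1, with 693.5, 859.9 and 248.9 with PL2-3 and 1929, 1842 and 1020 with CpG (-1.39 ± 0.38, limma adjusted p = 0.0853). Intervals were wide for the dim members: 1434379_at of Mxd4 differed by 1.08 between PL2-3 and CpG, with an interval of -0.04 to 2.21. Without anti-IgM+CpG replicate 1 or replicate 2 the count in PL2-3 against CpG was 1, and without anti-IgM+CpG replicate 3 that in PL2-3 against anti-IgM+CpG was 2.

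The change with both agents was set against the sum of the changes with each agent. For Myc the changes of 2.15 with anti-IgM and 2.13 with CpG sum to 4.28, and the change with both was 2.25. The difference of -2.03 ± 0.34 passed the test (limma adjusted p = 0.0165), as 1 of 13 members and 1.28% of all tested probe sets did. It was -1.94 within the arrays labelled Enzo and -2.21 on those labelled Ambion. By the beta-actin ratio of the anti-IgM+CpG arrays, the first of these values may mix kits. With the actin-based term the difference was -1.32 ± 0.27 and still passed. The call ended without CpG replicate 1 or CpG replicate 3. From the media mean log2 of 12.75, a rise of 4.28 would end above the highest signal on anti-IgM+CpG replicates 2 and 3. Those highest signals of any probe set besides controls were 125751 and 120909, with 223101 on replicate 1. So large a rise may not be measurable on replicates 2 and 3, and the part of this limit in the difference was not tested.

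Mxd4 probe sets 1434378_a_at and 1434379_at showed the same shape with the opposite sign. For 1434378_a_at the single changes sum to -6.79 and the change with both was -3.50, a difference of 3.29 ± 0.82 (limma adjusted p = 0.063). For 1434379_at the sum was -6.68 and the change with both -3.66, a difference of 3.01 ± 0.75 (limma adjusted p = 0.0619). Neither passed, though without anti-IgM+CpG replicate 3 both did, the first at 4.34. A fall of that summed size from the media level would end below log2 of the pseudocount, so it cannot be measured on this scale. With the actin-based term the differences were 2.34 ± 0.66 and 2.43 ± 0.73, and neither passed. For Max (0.45 ± 0.30), Mnt (0.64 ± 0.28) and 1450376_at of Mxi1 (0.29 ± 0.34) no departure from the sum passed the test.

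**Figure D4:**
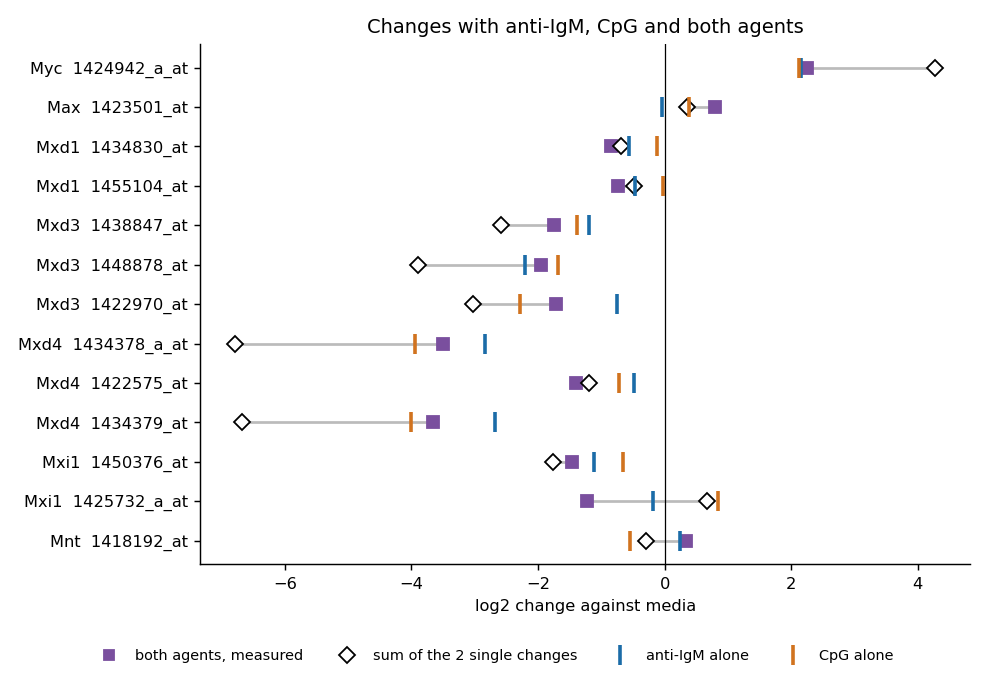
Log2 change against media (horizontal axis) of the 13 tested probe sets (vertical axis): purple squares are cells given both agents, open diamonds the sum of the changes with anti-IgM (blue ticks) and CpG (orange ticks), and grey lines join each pair. Myc with both agents lies at 2.25, beside the single changes of 2.15 and 2.13 and away from their sum of 4.28. For 1434378_a_at and 1434379_at of Mxd4 the squares at -3.50 and -3.66 lie away from the sums of -6.79 and -6.68.

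Most genes listed as induced by Myc rose with each treatment. Each gene was read by its brightest probe set. Of 30 listed genes, all tested, 25 rose with anti-IgM, 28 with CpG, 27 with PL2-3 and 29 with both agents, and none fell. Of all genes tested by their brightest probe set, 16.9%, 27.4%, 23.6% and 40.5% passed in those comparisons in either direction, and 9.07%, 12.3%, 11.4% and 16.7% rose. The median change of the list was 1.03, 1.25, 1.17 and 1.36, against -0.13, -0.21, -0.10 and -0.29 for all genes. The list and the members were chosen with these data already known, so the counts are a description.

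Polr1b, a subunit of RNA polymerase I, which makes ribosomal RNA, rose by 2.05 ± 0.23 with anti-IgM, 2.31 ± 0.23 with CpG, 2.17 ± 0.23 with PL2-3 and 1.97 ± 0.23 with both agents. Srm, which makes spermidine, rose by 1.78 ± 0.19, 2.02 ± 0.19, 1.96 ± 0.19 and 2.32 ± 0.19 in that order. Hk2, the hexokinase that starts glycolysis, rose by 1.43 ± 0.15, 2.38 ± 0.15, 1.97 ± 0.15 and 2.47 ± 0.15. The nucleolar GTPase gene Gnl3 rose by 1.65 to 1.91. Ccnd2, cyclin D2 of the G1 phase, rose by 1.01 ± 0.26 with anti-IgM, 2.55 ± 0.26 with CpG, 1.62 ± 0.26 with PL2-3 and 2.15 ± 0.26 with both agents. Nop56, a core protein of small nucleolar ribonucleoproteins, rose by 2.25 ± 0.26 with both agents.

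For some of these targets the change with both agents was below the sum of the single changes. Of the 30, 12 were below it by the test, 0 above and 18 did not pass, where 1.65% of all genes passed and 1.14% were below it, and the list's median difference was -0.81 against 0.05 for all genes. The actin-based term again gave 12, with a median of -0.97. Polr1b was below the sum by -2.39 ± 0.33, Gnl3 by -1.65 ± 0.32, Srm by -1.48 ± 0.27 and Hk2 by -1.34 ± 0.21.

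Genes that Myc is known to repress were split. Of 7 tested, 2 fell with anti-IgM, 4 with CpG, 2 with PL2-3 and 3 with both agents (2 with the actin-based term), and none rose, where 7.81%, 15.1%, 12.2% and 23.8% of all genes fell. Gadd45a, a growth arrest gene, fell by 1.63 ± 0.39 on the log2 scale with anti-IgM, by 2.12 ± 0.39 with CpG, by 1.96 ± 0.39 with PL2-3 and by 2.00 ± 0.39 with both agents. Cdkn1b, the cyclin-dependent kinase inhibitor p27, fell by 1.53 ± 0.37, 2.25 ± 0.37, 1.75 ± 0.37 and 1.97 ± 0.37 in that order. Ndrg1 (-1.25 ± 0.31) and the stress factor gene Ddit3 (-1.03 ± 0.25) fell with CpG, and Ddit3 with both agents (-0.68 ± 0.25).

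**Figure D5:**
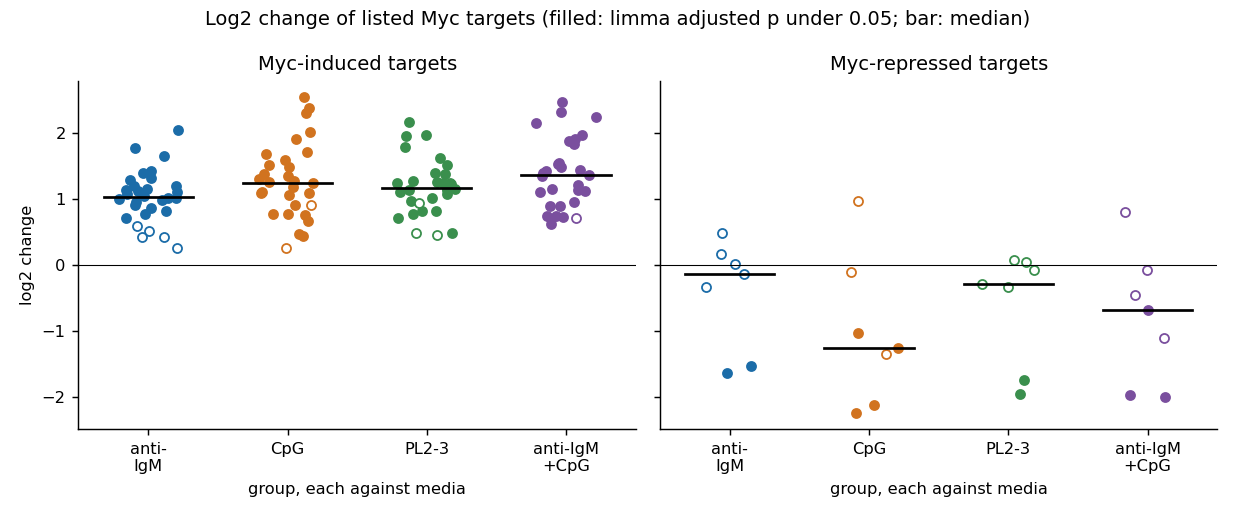
Log2 change against media (vertical axis) of 30 genes listed as induced by Myc (left) and 7 tested genes listed as repressed by it (right), by treatment. Each point is 1 gene, filled where its limma adjusted p was under 0.05, and black bars are medians. Left, the medians lie between 1.03 and 1.36 and no filled point is below 0. Right, filled points lie below 0 and are 2, 4, 2 and 3 in number.

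Genes of proteins that work with the network at chromatin were higher in part. Of 12 tested cofactor genes, 5 rose with anti-IgM, with CpG and with PL2-3 and 6 with both agents, and none fell, where 9.07%, 12.3%, 11.4% and 16.7% of all genes rose. Under the actin-based term 5 rose and 1 fell with both agents, and 5 rose and 1 fell with CpG. Ruvbl2 and Ruvbl1, ATPases of the complexes that Myc recruits, rose by 1.36 ± 0.14 and 1.26 ± 0.20 with anti-IgM, by 1.63 ± 0.14 and 1.45 ± 0.20 with CpG, by 1.74 ± 0.14 and 1.35 ± 0.20 with PL2-3 and by 1.72 ± 0.14 and 1.87 ± 0.20 with both agents. The acetyltransferase gene Kat2a rose by 0.92 to 1.28 across the 4 treatments, and Wdr5, a cofactor through which Myc meets chromatin, rose by 0.83 ± 0.16 with anti-IgM, 1.10 ± 0.16 with CpG, 0.98 ± 0.16 with PL2-3 and 0.95 ± 0.16 with both agents. Hdac2, a histone deacetylase, rose by 0.60 ± 0.15, 0.72 ± 0.15, 0.71 ± 0.15 and 1.0 ± 0.15 in that order.

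Genes that control Myc protein stability gave few calls, in a list too short for a difference from the background to be read. Of 9 tested, 0 passed with anti-IgM and 1 with each other treatment (2 fell with both agents under the actin-based term), where 16.9%, 27.4%, 23.6% and 40.5% of all genes passed. Fbxw7, the ubiquitin ligase subunit that marks Myc for destruction, rose with CpG (0.64 ± 0.15). The kinase gene Aurka fell with PL2-3 (-1.30 ± 0.39), and Gsk3b, the kinase that phosphorylates Myc ahead of Fbxw7, fell with both agents (-2.26 ± 0.43). Ppp2r5a, a phosphatase subunit and the brightest of the list, changed by -0.36 with anti-IgM and did not pass.

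Of the wider network around Max and Mlx, 4 of 6 genes were tested and 0 passed with anti-IgM, CpG or PL2-3, where 16.9%, 27.4% and 23.6% of all genes passed, so that 0 of 4 is near that background. With both agents, where 40.5% of all genes passed, Zbtb17 (Miz-1, through which Myc represses genes) rose by 0.63 ± 0.23 and Mlxip, a partner of Mlx, fell (-0.56 ± 0.19). By the actin-based term 0 passed.

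Genes of factors reported to act on Myc transcription went both ways. Of 11 tested, 4 rose and 4 fell with anti-IgM, 2 and 3 with CpG, 2 and 4 with PL2-3, and 3 and 7 with both agents (3 and 6 under the actin-based term). Of all genes, 9.07% rose and 7.81% fell with anti-IgM, 12.3% and 15.1% with CpG, 11.4% and 12.2% with PL2-3, and 16.7% and 23.8% with both agents. Fubp1, which binds the far upstream element of Myc, rose by 1.67 ± 0.22, 1.91 ± 0.22, 1.55 ± 0.22 and 2.19 ± 0.22 in that order. Irf4, a B cell activation factor, rose by 1.90 ± 0.25, 1.26 ± 0.25, 1.39 ± 0.25 and 1.56 ± 0.25. Klf2 and Foxo3, factors of resting lymphocytes, fell with all 4 treatments. The change of Klf2 was between -0.97 ± 0.33 with CpG and -3.24 ± 0.33 with both agents. That of Foxo3 was between -1.22 ± 0.32 with PL2-3 and -1.91 ± 0.32 with CpG. Bcl6, a repressor of Myc in germinal centre cells, fell most with anti-IgM (-1.36 ± 0.22) and did not pass with CpG (-0.02 ± 0.22). Nfatc1, a calcium-driven factor, rose with anti-IgM (0.90 ± 0.19) and fell with CpG (-1.04 ± 0.19). Klf4 (-1.77 ± 0.41) and the insulator factor gene Ctcf (-1.57 ± 0.32) fell with both agents.

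Among 13153 genes, those whose log2 signal followed Myc most closely over the 15 arrays were Rrp1b (Pearson r of 0.972), Yrdc (0.970), Ccl4 (0.963), Ghitm (0.959) and Zdhhc13 (0.959). For the brightest Mxd4 probe set they were Pkig (0.968), Uvrag (0.962), Flna (0.961), AI467606 (0.960) and H2-Oa (0.958), and for 1450376_at of Mxi1 R3hdm2 (0.972) and Senp7 (0.950) led. The closest gene was Eng (0.942) for Mxd3, Napa (0.919) for Mnt, 4930412F09Rik (0.868) for Mxd1 and Desi1 (0.844) for Max. The arrays share the same 5 groups and labelling kits, so these values describe likeness of pattern only.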

How the data were processed

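RNA of AM-14 B cells was measured on 15 Affymetrix mouse arrays, 1 per sample, in 5 groups of 3 taken from the titles. Per the labels' protocols, total RNA was extracted with RNeasy columns and labelled with biotin by the Enzo or the Ambion kit. The deposited values are linear intensity signals from MAS5, per the submitters' processing notes, which name no version. No MAS5 detection call was used here. All 45037 probe sets besides 64 controls were kept, and the 3 empty cells of the table belonged to controls. Of them 34945 had 1 gene symbol, 932 several and 9160 none, and no member probe set was shared with another gene. Exact permutation of 3 arrays against 3 gives no two-sided p below 0.1 and was not used. The number of arrays limits the precision.

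A pseudocount of 75.19 (the percentile 20 of the signals) was added before log2 was taken. The 27881 probe sets at or above their array's median on at least 3 arrays were fitted with limma 3.58.1 (lmFit, eBayes with an intensity trend) in R 4.3.3, with group and labelling kit as terms, all 15 arrays and 9 residual degrees of freedom. The 11 comparisons were each adjusted by Benjamini-Hochberg over all tested probe sets. Figures used Python 3.11.15, matplotlib 3.10.9 and pandas 2.3.3. The procedure was tested on simulated data.

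Named were all member probe sets and, from each further list, up to 4 called genes per comparison against media with the largest change of their brightest probe set, followed through the other comparisons. A list without a called gene was shown by its brightest member. Most alike genes were ranked by Pearson r over the 15 arrays. The members, the lists and the rule were chosen with earlier results of these data known. The actin-based term splits arrays at a ratio of 0.25.

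Whether replicate numbers pair the arrays was read from deviations from the group means. Without the anti-IgM+CpG arrays, all 18 same-numbered pairs correlated above 0.1 (0.187 to 0.681), against 12 of 36 pairs of different numbers. Among 12 such pairs that included anti-IgM+CpG, 0 did. The labelled kit follows the replicate number and was not removed from these deviations. The values therefore cannot tell pairing by number from a shared kit. The numbers were tried as a block, with 30 other alternatives: normalization, pseudocount, filter, labelling term, arrays used, variance model, probe set choice, a minimum fold of 2, and each array left out in turn.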

Additional observations from a re-analysis of the deposited data

Results flagged for a closer look

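The change of Myc with anti-IgM and CpG together differed from the sum of the changes with each agent by -2.03 ± 0.34 on the log2 scale (limma adjusted p = 0.0165), which is the test of whether the effect of 1 agent was the same with and without the other. The changes against media were 2.25 with both agents, 2.15 with anti-IgM and 2.13 with CpG. A rise by the sum of the single changes would end above the highest signal on anti-IgM+CpG replicates 2 and 3 (125751 and 120909). It may therefore not be measurable there. Over 29 alternatives the difference ran between -2.36 and -1.32 with adjusted p between 0.000268 and 0.197, and it lost its call in 4 of them: no labelling term, no intensity trend, and leaving out CpG replicate 1 or CpG replicate 3. The 3 anti-IgM+CpG arrays stand apart in Xist and in the beta-actin ratio, and the part of that in the difference was not tested. All 3 arrays of that group and no others had low Xist. What sets them apart therefore cannot be told apart from the effect of giving both agents. Groups of 3 are too small for a test of single outlying arrays.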

How the results depend on the processing

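Under all 31 alternatives that could be run no called member changed direction, and the rise of Myc against media was called in each. Counts of member probe sets called, in place of 6 with anti-IgM, 5 with CpG, 7 with PL2-3 and 9 with both agents against media, ran from 3 to 6, 4 to 6, 4 to 8 and 7 to 10 when each array was left out in turn. The count with anti-IgM was 3 without anti-IgM replicate 3, and that with PL2-3 was 4 without PL2-3 replicate 3. For CpG against anti-IgM the range was 0 to 1, for PL2-3 against anti-IgM 0 to 0, for PL2-3 against CpG 0 to 1 and for PL2-3 against anti-IgM+CpG 0 to 2. For anti-IgM+CpG it was 0 to 1 against anti-IgM and 0 to 4 against CpG, and for non-additivity 0 to 3.

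With only the 6 member probe sets at or above the median on all 15 arrays, 3, 4 and 4 were called with anti-IgM, PL2-3 and both agents against media, since fewer were tested. Read by 1 probe set per gene, 5 were called with both agents and 2 for non-additivity. On the Enzo arrays alone 3 were called with CpG and 4 with PL2-3 against media, 0 for CpG against anti-IgM, 3 for PL2-3 against anti-IgM+CpG, 2 and 3 for anti-IgM+CpG against anti-IgM and CpG, and 2 for non-additivity, from fewer arrays. The actin-based term gave 8 for CpG against media and 0 for anti-IgM+CpG against CpG.

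No labelling term or no intensity trend gave 0 for CpG against anti-IgM, for anti-IgM+CpG against anti-IgM and CpG, and for non-additivity. A 2-fold minimum gave 0 for the first 3 of these, and fitting only the compared groups gave 0 for anti-IgM+CpG against anti-IgM and CpG and 2 for PL2-3 against CpG. Quantile normalization gave 2 higher and 4 lower for anti-IgM+CpG against media, in place of 2 and 7. It gave 1 for PL2-3 against CpG, 0 for anti-IgM+CpG against anti-IgM and 2 for non-additivity. Arrays shifted to the same median gave 0 for CpG against anti-IgM and 1 for PL2-3 against CpG, and a pseudocount of 244.9 gave 3 for non-additivity. The cause was not tested.

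Without the anti-IgM+CpG arrays 2 were called for CpG against anti-IgM and 1 for PL2-3 against CpG. With the replicate block added to that fit, an alternative chosen after seeing the data, the counts were again 2 and 1, and 6, 7 and 8 for anti-IgM, CpG and PL2-3 against media. The replicate block over all 15 arrays gave 6, 6, 6 and 8 against media and ended the call of Mxi1 with PL2-3. Single members lost a call 112 times and gained one 67 times over all alternatives. Signals below the array median carry little information on size, and this touches the stimulated Mxd4 values most.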
